A study of Mus musculus with 24 samples.

Results

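The genes described here are 8 of the 21887 protein-coding genes of the mouse: the mitophagy receptor genes Bnip3 and Bnip3l, the mTORC1 inhibitor gene Ddit4, the stress gene Ndrg1, the mitochondrial protein genes Fam162a and Higd1a, and the hypoxia-inducible genes Ankrd37 and Narf. They were taken by RefSeq symbol from a list whose members had been chosen by earlier results of the same oxygen comparison in these libraries, above all H3K27ac coverage and H3K36me3 density, so every value below is a description and none is given as a test of whether these genes respond. The cells tested were N1E115 cells, a mouse neuroblastoma line, labelled NOS1+ (carrying neuronal nitric oxide synthase), kept at 4% oxygen (hypoxia) for 3 days, and the cells they were set against were the same NOS1+ N1E115 cells kept at 20% oxygen (normoxia) for 3 days. ChIP-seq, the sequencing of DNA immunoprecipitated with antibodies to 5 histone marks, gave 2 libraries per mark and oxygen level, called set 1 and set 2. Separate cultures for the sets are not named in the labels, so their spread may be technical; only 1 cell line was used, and how it came to be NOS1+ is not stated in the sources used here.

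When oxygen is short, the hypoxia-inducible factors escape degradation and bind short DNA elements in promoters and enhancers. BNIP3 and BNIP3L (also called NIX) sit in the outer mitochondrial membrane and tether mitochondria to the autophagosome, so that they are degraded by mitophagy. DDIT4 (REDD1) holds back the growth-promoting kinase complex mTORC1, while HIGD1A serves mitochondrial respiration, FAM162A cell death and NDRG1 stress adaptation. Of the marks, H3K4me3 lies at promoters, H3K27ac at active promoters and enhancers, H3K4me1 mainly at enhancers, H3K36me3 over transcribed gene bodies and H3K27me3 over Polycomb-repressed chromatin.

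Promoter sequences were taken from RefSeq (GRCm38.p6, the assembly of mm10), which matched 6 of the 8 members. They are shown because the 5 letters ACGTG and GCGTG, the core of the hypoxia response element, can be read in them. The 250 bases before the transcription start of the following members are printed 5′ to 3′ on the gene's strand, and capitals mark either motif on either strand, where CACGT and CACGC are the same letters read on the opposite strand. Bnip3 lies on the minus strand (chr7:138909507-138909756), as do Ddit4 (chr10:59951771-59952020) and Fam162a (chr16:36071562-36071811), and Narf on the plus strand (chr11:121236986-121237235).
Bnip3: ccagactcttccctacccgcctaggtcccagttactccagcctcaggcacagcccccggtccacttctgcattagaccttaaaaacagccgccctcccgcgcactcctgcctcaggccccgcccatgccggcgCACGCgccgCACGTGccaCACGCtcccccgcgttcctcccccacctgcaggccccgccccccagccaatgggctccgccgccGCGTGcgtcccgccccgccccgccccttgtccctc
Ddit4: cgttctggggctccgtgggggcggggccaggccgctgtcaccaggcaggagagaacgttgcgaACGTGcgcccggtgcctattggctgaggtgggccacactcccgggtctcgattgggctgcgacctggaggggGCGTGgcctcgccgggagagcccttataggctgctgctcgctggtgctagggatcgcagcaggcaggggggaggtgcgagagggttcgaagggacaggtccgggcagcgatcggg
Fam162a: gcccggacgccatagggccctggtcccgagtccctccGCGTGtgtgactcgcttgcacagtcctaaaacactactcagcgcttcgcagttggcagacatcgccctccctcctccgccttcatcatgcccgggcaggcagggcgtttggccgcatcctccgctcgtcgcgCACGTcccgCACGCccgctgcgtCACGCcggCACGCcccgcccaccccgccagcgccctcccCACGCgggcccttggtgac
Narf: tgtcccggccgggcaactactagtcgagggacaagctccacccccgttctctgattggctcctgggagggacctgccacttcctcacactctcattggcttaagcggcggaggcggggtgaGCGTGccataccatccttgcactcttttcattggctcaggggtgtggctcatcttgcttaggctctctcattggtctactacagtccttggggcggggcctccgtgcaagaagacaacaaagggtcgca

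All 6 members with a promoter sequence held at least 1 of the motifs, and the count was 6 in Fam162a, 5 in Bnip3, 4 in Ankrd37, 2 in Ddit4, 2 in Higd1a and 1 in Narf. In Bnip3 the motif beginning 108 bases before the start (-108) and that at -107 overlap, because the 6 letters CACGTG read the same on both strands and were counted once for each. Over the 21263 promoters of the table, cut to the same 250 bases, 44.0% held at least 1 such motif, 20.1% held at least 2 and 8.41% at least 3. G and C made up 58.8% of the bases in Narf and 67.6% to 72.4% in the other 5, against a median of 55.6% over the table. A match is a run of letters and does not show binding.

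Total library depth was not known for any mark, and reads in called islands were known only for the island marks. H3K36me3 libraries had 15581212 and 15349603 reads in islands at 4% oxygen, against 25048785 and 13350093 at 20% oxygen, in the order set 1 and set 2, and per gene values were therefore given per 1000000 reads in islands. H3K27ac peaks spanned 56.9 and 75.2 Mb at 4% oxygen, against 59.6 and 65.4 Mb at 20% oxygen, while H3K4me1 peaks spanned 61.0 and 63.8 Mb at 4% oxygen, against 105.9 and 81.8 Mb at 20% oxygen. In set 1 the 4% and 20% libraries of every mark but H3K4me1 were on different flow cells, so that oxygen and flow cell cannot be told apart there. Set 2 was run on a flow cell common to both oxygen levels. The oxygen levels were on different lanes for H3K4me3 in set 2 and for H3K4me1 in both sets, so oxygen and lane cannot be told apart there. Of 9 noradrenergic neuroblastoma genes, 8 had H3K4me3 and H3K27ac at a gene end in all 4 libraries, Hand2, Th and Dbh among them, and Gata3 had neither. Their summed H3K27ac was 18539 and 18892 bp at 4% oxygen, against 20013 and 19737 bp at 20% oxygen. Markers of glia, endothelium, liver and muscle had both marks in all 4 libraries in 0 of 6 genes per list, and immune markers in 1 of 6, the lysosomal gene Cd68, with 1303 and 810 bp at 4% oxygen, against 295 and 341 bp at 20% oxygen.

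H3K27ac covered more DNA in both 4% libraries than in both 20% libraries within 2500 bp of the start at 8 of 8 members. This window was added after seeing the data. At Ddit4 the margin was small, and of all genes with the mark 25.4% were higher and 9.33% lower in the same way. The median difference of the members was 781 bp in set 1 and 1113 bp in set 2, where oxygen levels shared a flow cell, beside medians of 0 and 208 bp over all genes. Over the gene and 10 kb on either side 7 members were higher, all but Ddit4, and 0 lower (all genes: 23.8% higher, 7.64% lower). Within 1 kb of either gene end 6 members were higher, all but Bnip3 and Fam162a, and 0 lower (all genes: 23.7% higher, 10.6% lower). With 2 libraries per group the smallest exact permutation p is 0.333, so no difference in covered length was tested. In bulk cells, a mark present in more cells and more of the mark per cell cannot be told apart.

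**Figure D1:**
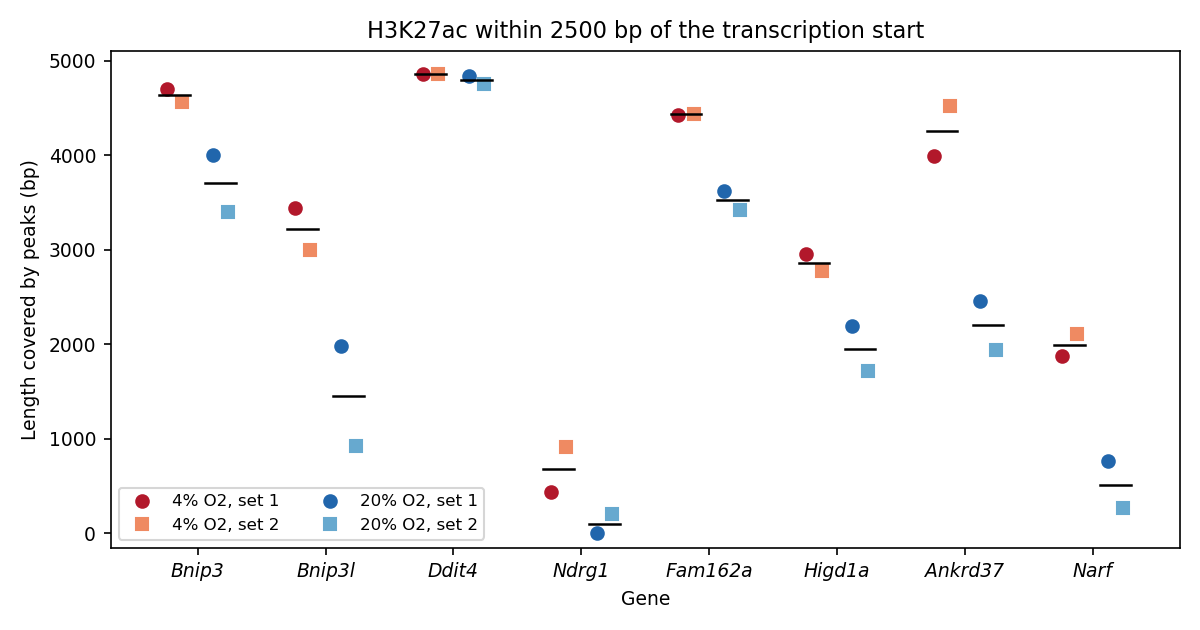
Length covered by H3K27ac peaks within 2500 bp of the transcription start (bp) for the 8 genes; points are libraries at 4% oxygen (red, left) and 20% oxygen (blue, right), and bars are group means of 2 libraries. The 4% points lie above the 20% points at every gene, narrowly at Ddit4 (4856 and 4864 bp at 4%, 4835 and 4757 bp at 20%).

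Bnip3, on chromosome 7 from 138890836 to 138909506, had its start covered by H3K27ac for 4705 and 4565 bp at 4% oxygen, against for 4007 and 3402 bp at 20% oxygen. The means were 4635 ± 99.0 bp at 4% and 3704.5 ± 428 bp at 20% (SD, n = 2 each), and the groups did not overlap. Peaks reached farther out on both sides at 4% oxygen: the edge of the acetylated domain, joined over gaps of up to 500 bp, lay 3433 and 3685 bp into the gene at 4% oxygen, against 2867 and 3225 bp at 20% oxygen. On the upstream side the edge lay at 2296 and 2331 bp at 4% and at 1665 and 1482 bp at 20%. The motifs printed above fall between -117 and -35, around a gap in the acetylation: over the 4 libraries together the upstream peaks ended at -101 and the downstream peaks began at -8. H3K27ac covered 158 and 72 of the 250 printed bases at 4% oxygen, against 137 and 0 at 20% oxygen, so the groups overlapped in the printed stretch.

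H3K4me3 at Bnip3 reached 4612 and 5779 bp into the gene at 4% oxygen, against 3525 and 4203 bp at 20% oxygen, without overlap. Within 2500 bp of the start the window was nearly full in every library, with 4363 and 4709 bp at 4% and 4415 and 4458 bp at 20%, and the groups overlapped. The gain was thus at the far edge of the domain inside the gene. A further H3K27ac peak 9423 bp upstream, present in all 4 libraries with H3K4me3, had 1753 and 1980 bp at 4% oxygen, against 1143 and 1313 bp at 20% oxygen. H3K4me1 flanking the Bnip3 start was shorter at 4% oxygen, with 442 and 448 bp against 3166 and 925 bp at 20%; the genome-wide span of the mark was shorter as well.

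Bnip3l, on chromosome 14 from 66985238 to 67008877, differed from Bnip3 in how little acetylation it carried at 20% oxygen. H3K27ac covered 3439 and 2995 bp around the start at 4% oxygen, against 1979 and 929 bp at 20% oxygen. The means were 3217 ± 314 bp and 1454 ± 742 bp (SD, n = 2 each), a ratio of 2.21, without overlap. In the gene the domain edge lay at 2168 and 1994 bp at 4% and at 1452 and 232 bp at 20%. The 20% set 2 library had a further peak from 827 to 1359 bp into the gene, too far off to be joined over 500 bp. Upstream the edge lay at 1761 and 1361 bp at 4% and at 928 and 388 bp at 20%. H3K4me3, by contrast, covered 3300 and 2710 bp at 4% oxygen, against 3637 and 2465 bp at 20% oxygen, and these overlapped. The start of Bnip3l was placed at the end of the gene record that had H3K4me3 in all 4 libraries.

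**Figure D2:**
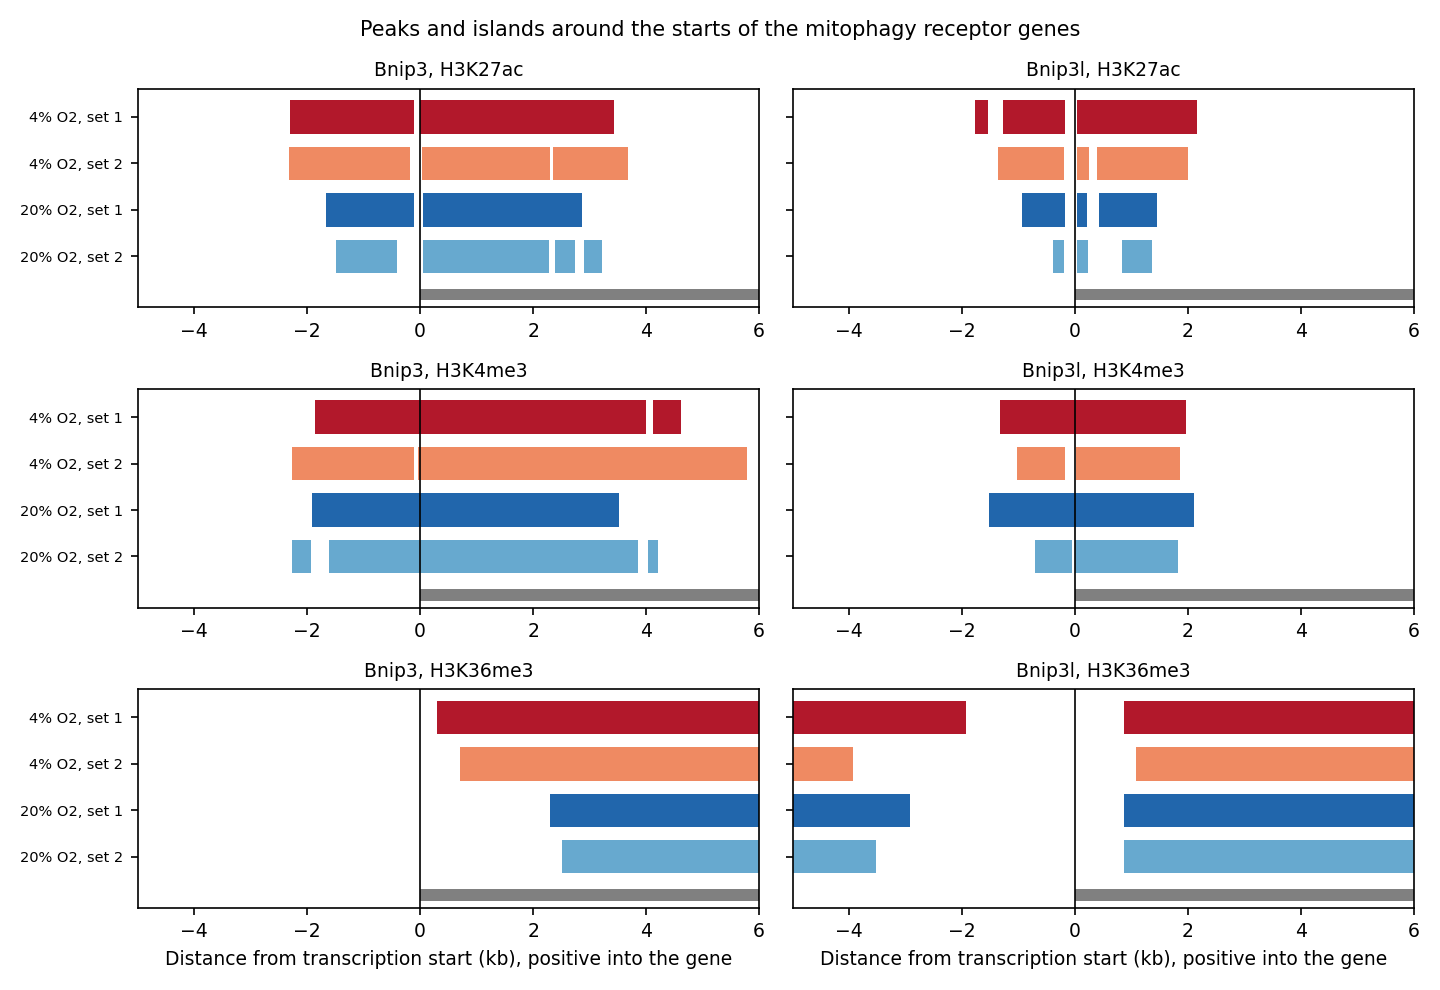
Peaks (H3K27ac, H3K4me3) and islands (H3K36me3) of each library around the starts of Bnip3 (left) and Bnip3l (right); the x axis is the distance from the start in kb, positive into the gene, red rows are 4% oxygen, blue rows 20% oxygen, and the grey bar is the gene. At Bnip3 the H3K36me3 islands begin 306 and 706 bp into the gene at 4% and 2306 and 2506 bp into it at 20%; at Bnip3l they begin 877 and 1077 bp in at 4% and 877 bp in at 20%.

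Ddit4, a gene of 2096 bp on chromosome 10 (59949675 to 59951770), lay inside a broad acetylated stretch at both oxygen levels. H3K27ac within the 10 kb window covered 14072 and 19084 bp at 4% oxygen, against 16431 and 19208 bp at 20% oxygen, which overlapped. Near the start the window was close to full, with 4856 and 4864 bp at 4% and 4835 and 4757 bp at 20%; its mean level there was at the 99.8th percentile of 17494 genes with a known start. H3K4me3 extended 3897 and 4352 bp past the start at 4% oxygen, beyond the end of the gene, and 3176 and 3489 bp at 20% oxygen, without overlap. Ddit4 was also the member where H3K4me1 in the window separated, with 7080 and 5729 bp at 4% and 13476 and 10056 bp at 20%. With 2 kb in place of 10 kb on either side Ddit4 overlapped and Narf was the member that separated. In set 1, the 4% library had 5 peaks of 260 to 960 bp between 3098 and 7001 bp past the Ddit4 start, against 1 peak of 5680 bp from 1034 to 6713 bp in the 20% library. In set 2, the 4% library had 3 peaks between 3102 and 6654 bp, against 4 between 2945 and 6797 bp in the 20% library.

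Ndrg1, which encodes a cytoplasmic protein induced by hypoxia and other stress, had the least H3K27ac and H3K4me3 around its start of the 8. Its record spans 40324 bp on chromosome 15 (66929318 to 66969641). H3K27ac covered 442 and 916 bp at its start at 4% oxygen, against 0 and 205 bp at 20% oxygen. H3K4me3 covered 2421 and 2490 bp at 4% and 906 and 1989 bp at 20%. Neither mark overlapped between the groups, and Ndrg1 was the member whose H3K4me3 separated within 2500 bp of the start. A non-coding gene, Gm2895, begins 6 bp away on the other side, so that peaks over both starts cannot be assigned to Ndrg1 alone.

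Ndrg1 was also the member with H3K27me3, which no library had within 10 kb of the other 7. H3K27me3 covered 11441 and 18041 bp of the Ndrg1 window at 4% oxygen, against 2841 and 21441 bp at 20% oxygen, and these overlapped. The islands came from upstream and ran 2240 and 8040 bp into the gene at 4% oxygen; at 20% oxygen they ended at -7160 bp in set 1 and ran 11440 bp into the gene in set 2. The start thus lay in H3K4me3 peaks and H3K27me3 islands of both 4% libraries and of the 20% set 2 library. Over all genes with the mark, 22.9% were higher and 5.14% lower at 4% oxygen.

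**Figure D3:**
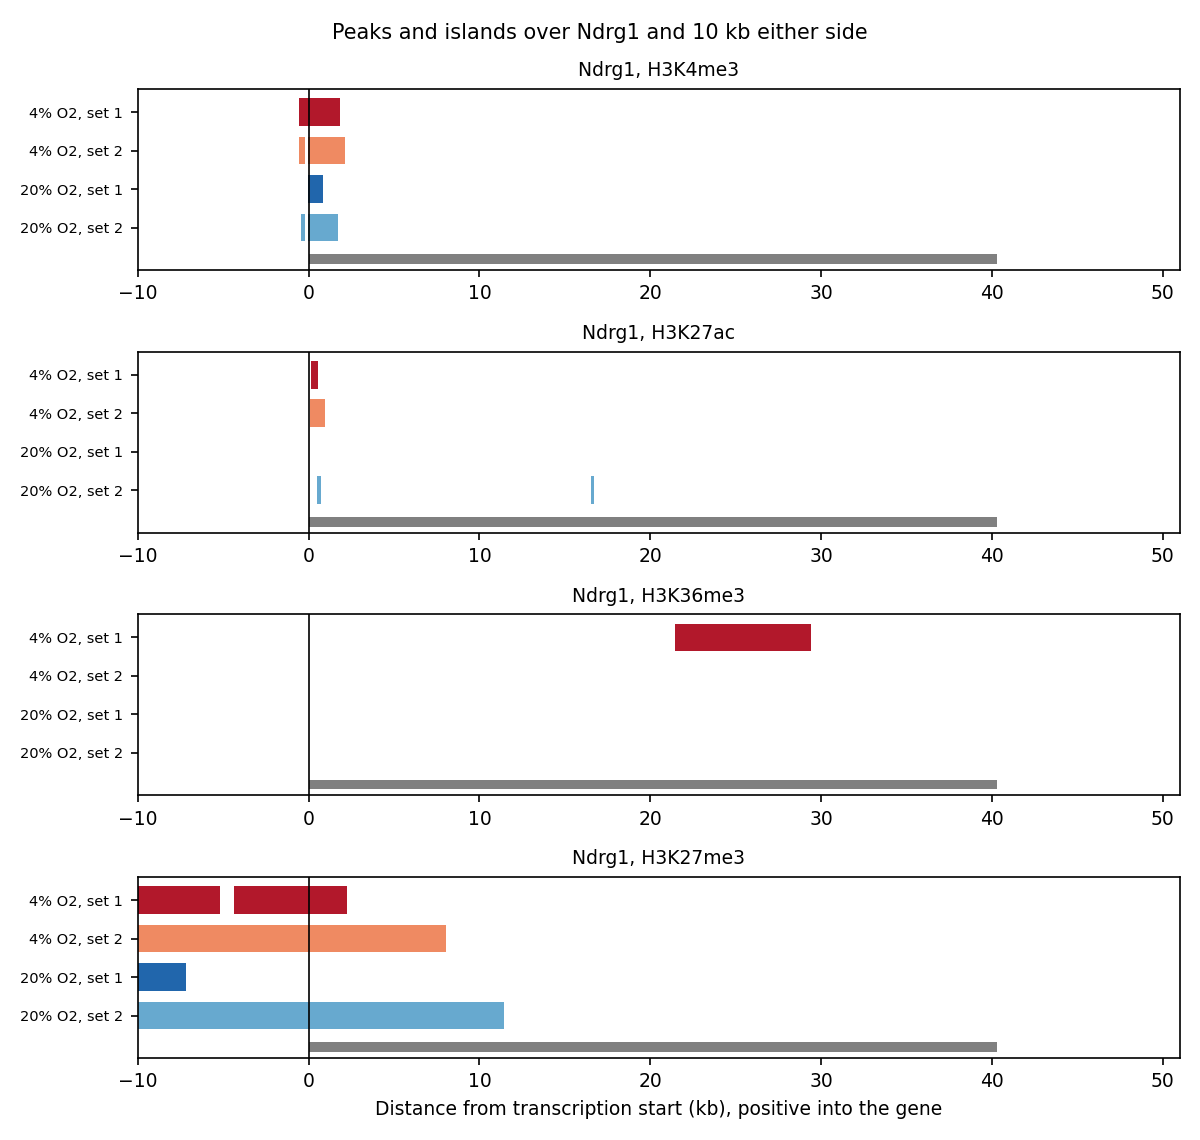
Peaks and islands of 4 marks over Ndrg1 and 10 kb on either side, by distance from the start in kb (positive into the gene), with 4% libraries in red above 20% libraries in blue and the gene as a grey bar. H3K36me3 appears in the 4% set 1 library alone, as an island of 8000 bp that begins 21441 bp into the gene, and H3K27me3 reaches over the start in 3 of 4 libraries.

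Fam162a encodes a mitochondrial protein that in human cells promotes cell death under hypoxia. It lies on chromosome 16 from 36043844 to 36071561 and shares its promoter with Ccdc58, whose record begins 98 bp away. H3K27ac covered 4426 and 4440 bp around the start at 4% oxygen, against 3626 and 3427 bp at 20% oxygen, and the upstream edge lay at 4275 and 3199 bp at 4% and at 1435 and 1336 bp at 20%. The groups did not overlap in either measure, and the extension ran into Ccdc58. A region from -4275 to -2409 bp carried 1867 and 731 bp of H3K27ac at 4% oxygen, against 0 bp in both 20% libraries.

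Higd1a, whose product associates with cytochrome c oxidase in the inner mitochondrial membrane, lies on chromosome 9 (121848557 to 121857796). H3K27ac covered 2954 and 2777 bp at 4% oxygen, against 2192 and 1714 bp at 20% oxygen. Its domain edge in the gene lay at 1706 and 1977 bp at 4% and at 1016 and 1042 bp at 20%, whereas the upstream edges, 1318 and 1247 bp at 4% and 1350 and 794 bp at 20%, overlapped. The difference was therefore on the gene side. H3K4me3 in the window separated narrowly, with 4640 and 5656 bp at 4% and 4600 and 4517 bp at 20%. The non-coding gene Gm47112 overlaps the Higd1a start.

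Ankrd37, an ankyrin repeat gene known as a target of the hypoxia-inducible factor, had 3 H3K27ac regions present in both 4% libraries and in neither 20% library, the most among the members. It spans 45996908 to 46000414 on chromosome 8. Around its start H3K27ac covered 3991 and 4524 bp at 4% oxygen, against 2463 and 1937 bp at 20% oxygen, a ratio of means of 1.94. H3K4me3 in the window had 4269 and 4266 bp at 4% and 3775 and 4039 bp at 20%, without overlap. Further upstream, 3 regions were acetylated in both 4% libraries and in neither 20% library. The region from -3348 to -2656 bp had 693 and 259 bp at 4%, that from -7587 to -6974 bp had 614 and 186 bp, and that from -10542 to -10070 bp had 399 and 443 bp, each with 0 bp in both 20% libraries. The last of these carried H3K4me3 in all 4 libraries and lies within 1 kb of an end of Lrp2bp, another gene.

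Narf encodes a nuclear protein that in human cells binds farnesylated prelamin A. It lies on chromosome 11 from 121237236 to 121255856. H3K27ac near its start covered 1877 and 2107 bp at 4% oxygen, against 765 and 268 bp at 20% oxygen, and the ratio of means, 3.86, was exceeded among the members by Ndrg1 alone, whose 20% set 1 library had 0 bp. H3K4me1 there was at 0 bp in both 4% libraries and at 2476 and 429 bp at 20% oxygen. A region from -6105 to -5157 bp had 949 and 407 bp of H3K27ac at 4% oxygen, against 0 bp in both 20% libraries, with H3K4me1 in all 4 libraries. Foxk2, the next gene past the end of Narf, had 1558 and 1406 bp of H3K27ac within 1 kb of its own promoter end at 4% oxygen, against 1713 and 1665 bp at 20%, the opposite order.

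**Figure D4:**
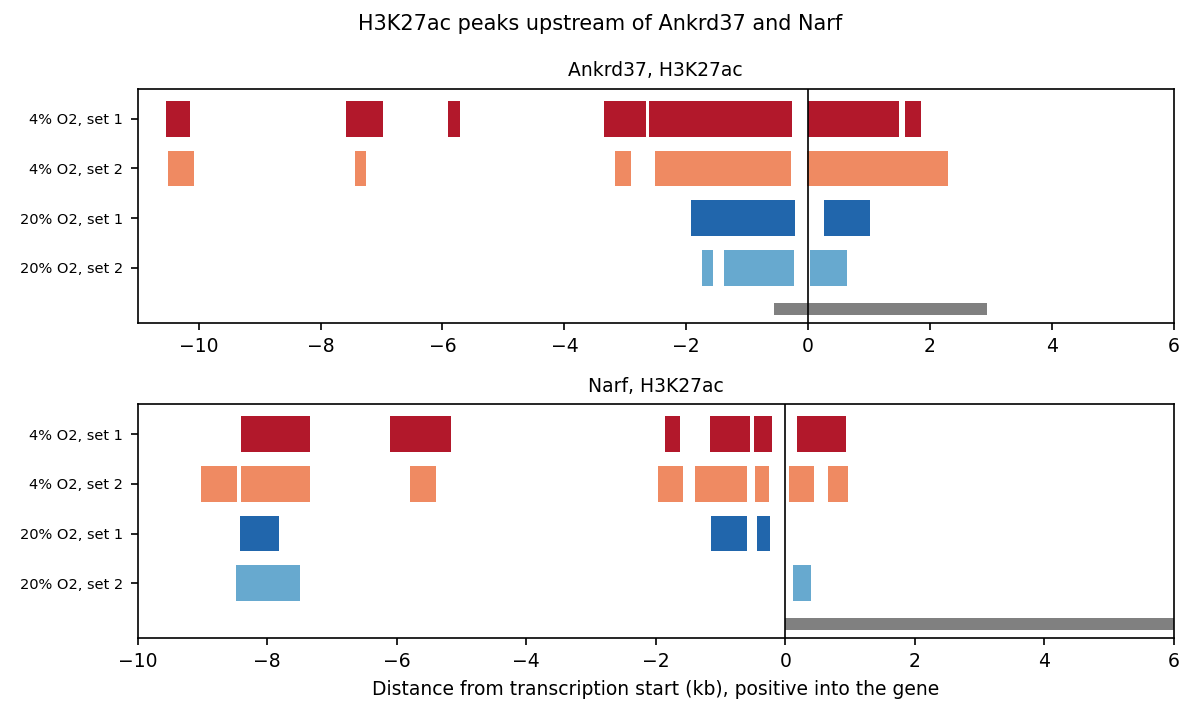
H3K27ac peaks of each library upstream of Ankrd37 and Narf, by distance from the transcription start in kb (positive into the gene); 4% libraries are red and above the blue 20% libraries, and the grey bar is the gene record. Upstream of Ankrd37, 3 regions have peaks in both 4% libraries and in neither 20% library, and upstream of Narf there is 1 such region beyond 2500 bp.

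Away from the starts, by more than 2500 bp, the windows of the 8 members held 32 H3K27ac regions when the 4 libraries were merged, counted from the member's own start. Of these, 5 were in both 4% libraries and neither 20% library (3 at Ankrd37, 1 at Fam162a, 1 at Narf), and 0 the other way round. Over the genome, of 79923 regions more than 2500 bp from any known start, 2.70% had the first pattern and 1.64% the second. The members' regions are not a like set, since some lie at ends of other genes, among them the Ankrd37 region near Lrp2bp. The members had also been chosen partly by H3K27ac coverage. At Fam162a 13 regions were counted, and 3 of them, at Wdr5b and inside Fam162a, were present in all 4 libraries.

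The domain edges differed by mark and side. For H3K27ac the edge lay farther into the gene in both 4% libraries at 6 members, not at Ddit4 and Fam162a, and nearer at 0. Upstream it lay farther at 5 members and nearer at 0. Over all genes 19.0% were farther and 11.8% nearer on the gene side, and 24.5% and 9.06% upstream. Ndrg1 was among the 6, with a 4% set 1 edge at 577 bp. Its 20% set 2 library had a peak of 205 bp with its summit at 670 bp into the gene. That peak did not come within 500 bp of the start, so the edge was set to 0, and the separation at Ndrg1 rests on this rule. For H3K4me3 the gene-side edge lay farther at 3 members, Bnip3, Ddit4 and Ndrg1, and the upstream edge at 2, Ndrg1 and Narf (all genes: 4.66% farther and 21.7% nearer on the gene side; 9.13% and 15.7% upstream). H3K4me3 in the 10 kb window was higher at 5 members, Bnip3, Ddit4, Ndrg1, Higd1a and Ankrd37, and lower at 0 (all genes: 4.41% and 15.9%). Within 2500 bp of the start it was higher at Ndrg1 alone, 1 of 8 (4.94% and 17.8%). H3K4me1 was higher at 0 members and lower at 1, Ddit4, in the window (0.284% and 62.4%), and near the start it was lower at Bnip3 and Narf (0.252% and 57.2%).

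H3K36me3, the mark of the transcribed body, was denser at 4% oxygen over 6 of the 8 members once scaled to the reads in islands, and over 0 without that scaling (all genes without it: 1.98% higher, 14.7% lower). Reads per kb of gene, per 1000000 reads in islands, were higher in both 4% libraries at Bnip3, Bnip3l, Ddit4, Fam162a, Higd1a and Narf and lower at 0 (all genes: 15.5% higher, 19.3% lower). Bnip3 had 4.88 and 3.95 at 4% oxygen, against 3.23 and 2.77 at 20%. Bnip3l had 3.77 and 3.09 at 4% and 2.41 and 2.42 at 20%. In both receptor genes the 4% libraries lay above the 20% libraries, with the set 1 library the higher at 4%. Island reads were spread evenly, so each value averaged over whole islands, and at Bnip3 every library's island also ran over Ppp2r2d.

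Fam162a had the largest ratio of means among the members with reads in every library, 1.55, from 4.25 and 4.05 at 4% oxygen, against 2.70 and 2.66 at 20%. Ddit4 had 4.81 and 3.55 at 4% and 3.07 and 2.93 at 20%, and Higd1a 4.88 and 4.19 at 4% and 3.39 and 3.24 at 20%. Narf was the lowest of the 6, with 2.96 and 3.20 at 4% and 2.06 and 2.51 at 20%. None of these overlapped. Ankrd37, with 4.47 and 3.30 at 4% and 3.62 and 3.25 at 20%, overlapped, and Ndrg1 had an island in the 4% set 1 library alone (204 reads). On the log2 scale the median ratio of the 7 members with reads was 0.60 in set 1 and 0.35 in set 2, beside 0.03 and -0.03 over all genes. In reads per kb as deposited, Bnip3 had 76.0 and 60.6 at 4% oxygen, against 80.9 and 37.0 at 20%, where the set 1 library held the most island reads.

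**Figure D5:**
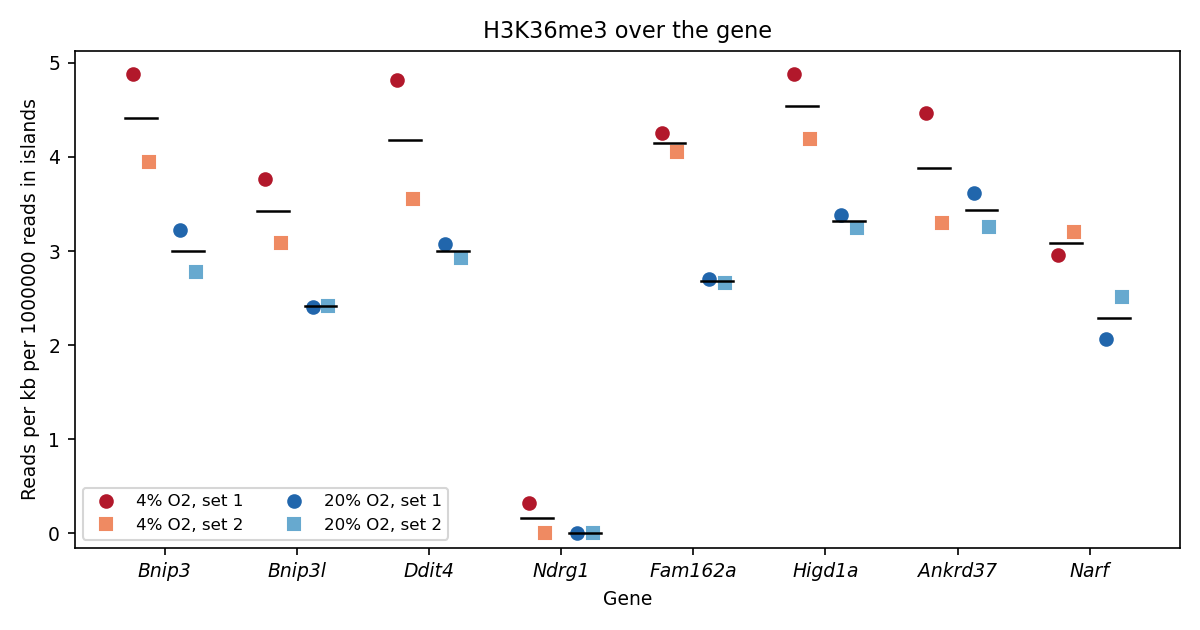
H3K36me3 reads per kb of gene record per 1000000 reads in islands; points are libraries at 4% oxygen (red, left) and 20% oxygen (blue, right), bars are group means of 2 libraries. With this scaling the groups are apart at 6 genes (at 0 without it), overlap at Ankrd37, and Ndrg1 has 0 in 3 of 4 libraries. Island reads were spread evenly over each island, including its parts outside the gene.

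The covered length added a positional difference. Islands covered 98.4% and 96.2% of Bnip3 at 4% oxygen, against 87.6% and 86.6% at 20% oxygen, as the mark began closer to the start at 4%, at 306 and 706 bp against 2306 and 2506 bp. Over Fam162a the first covered base lay at 361 bp in both 4% libraries and at 1161 and 961 bp at 20%, over Higd1a at 596 and 396 bp at 4% and 796 bp in both at 20%, and over Narf at 565 and 765 bp at 4% and 965 and 1365 bp at 20%. It was nearer at these 4 members and overlapped at Bnip3l, Ddit4 and Ankrd37; of 7586 genes with islands in every library, it was nearer at 17.4% and farther at 7.45%. Island edges move in steps of 200 bp. In the 10 kb window covered length was higher at 3 members, Bnip3, Fam162a and Narf (all genes: 9.85% higher, 21.0% lower).

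Islands often ran on into neighbouring genes, and in a fit over merged islands the values were of the whole region. The reads per kb of each gene share this limit, because island reads were spread evenly over the whole island. Bnip3 made up 29.5% of its region, which also holds Ppp2r2d, and Fam162a 31.5% of one with Kpna1 and Wdr5b. Ankrd37 made up 11.95% of a region with Ufsp2, while Narf made up 85.2%, Bnip3l 64.3%, Higd1a 62.3% and Ddit4 36.1% of theirs. In edgeR's quasi-likelihood fit of reads per covered length, the log2 ratios of 4% over 20% were 0.53 for Bnip3l, 0.41 for Ddit4, 0.39 for Bnip3, Higd1a and Narf, 0.22 for Fam162a and 0.16 for Ankrd37, a median of 0.39 beside 0.05 over 10858 regions. At a Benjamini-Hochberg adjusted p under 0.05 the fit called 0 of the 7 member regions and 0 of all regions (0.00% higher and 0.00% lower); at an unadjusted p under 0.05 there were 5 member regions and 833 higher and 263 lower regions in all. DESeq2 called 2 regions, none of them a member. With the set as a block the edgeR calls changed: 6 of the 7 member regions were called higher, all but Ankrd37, among 1073 regions higher (9.88%) and 350 lower (3.22%). The members had been chosen by earlier results of this comparison, H3K36me3 density included. Their calls are therefore a description and no test of these genes. Without the length offset the blocked edgeR fit called 0 of the 10858 regions, with 927 regions higher and 926 lower at an unadjusted p under 0.05. Over the 3677 regions with a share of at least 0.9 covered in every library, it called 388 higher and 354 lower without the offset.

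The machinery around the members was read from 3 lists chosen with earlier results known: 40 mitophagy and autophagy genes, 17 genes that feed into mTORC1 and 15 relatives of the members. H3K27ac in the window was higher in both 4% libraries at 11 of 39 mitophagy and autophagy genes with the mark and lower at 3, at 5 of 15 mTORC1 genes and lower at 1, and at 5 of 14 relatives and lower at 1. These shares, 28.2%, 33.3% and 35.7% higher, stand beside the 23.8% of all genes. Ulk1, the kinase that starts autophagy, had 9395 and 11507 bp at 4% oxygen, against 4209 and 5739 bp at 20%. The autophagy receptor gene Nbr1 had 5276 and 5549 bp at 4% and 3533 and 3906 bp at 20%, and the kinase gene Tbk1 2300 and 2488 bp against 1541 and 1627 bp. Becn1, which encodes a subunit of the lipid kinase complex that forms autophagosomes, was lower, with 1087 and 1237 bp at 4% and 1410 and 1553 bp at 20%.

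Among the relatives, Bcl2l1, which encodes the survival protein BCL-XL, had 19058 and 20340 bp of H3K27ac at 4% oxygen, against 10335 and 12788 bp at 20%. Mcl1, another survival gene of the same family, had 5302 and 9197 bp at 4% and 3270 and 3813 bp at 20%, and Ndrg2 2037 and 2140 bp at 4% and 1018 and 751 bp at 20%. Neither overlapped. In the mTORC1 list, Prkaa1, a catalytic subunit gene of the energy sensor AMPK, had 6157 and 6770 bp at 4% and 5602 and 5319 bp at 20%, and Rheb, the activator of mTORC1, 4143 and 6011 bp against 3858 and 3488 bp. Tsc2, whose product switches RHEB off, was lower, with 206 and 495 bp at 4% and 967 and 912 bp at 20%.

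H3K36me3 reads per kb were higher at 8 and lower at 10 of 38 mitophagy and autophagy genes, higher at 4 and lower at 0 of 14 mTORC1 genes, and higher at 1 and lower at 1 of 12 relatives, beside 15.5% higher and 19.3% lower over all genes. Ulk1 had 3.38 and 2.70 at 4% oxygen, against 1.99 and 2.15 at 20%. The ubiquitin-like protein gene Gabarap had 2.93 and 3.02 at 4% and 2.32 and 2.13 at 20%, and Pgam5, a mitochondrial phosphatase gene, was lower, with 3.16 and 3.05 against 3.87 and 3.41. H3K4me3 was higher at 1 and lower at 8 of 39 mitophagy and autophagy genes, at 0 and 0 of 15 mTORC1 genes, and at 1 and 2 of 13 relatives (all genes: 4.41% and 15.9%). Becn1, lower in H3K27ac, was the higher one in the first list, by at least 56 bp, and Bcl2l1 in the third. H3K4me1 was lower at 25 of 38, 10 of 15 and 9 of 14 genes of the lists and higher at 0 (all genes: 62.4% lower, 0.284% higher). H3K27me3 was higher at 6 of 13, 2 of 4 and 2 of 5 and lower at 0, 1 and 0 (all genes: 22.9% higher, 5.14% lower).

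Over the 20 libraries, the genes whose covered share of the window was most like that of Bnip3 were Arhgap30, Pfkl and Fem1c, at Euclidean distances of 8.53, 9.68 and 10.9 percentage points, with a median over all genes of 119. For Bnip3l they were Fbxl22, Raph1 and Tut4, at 7.59, 7.94 and 9.21 points, with a median of 155. Pfkl encodes a phosphofructokinase of glycolysis.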

How the data were processed

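Genes, lists, windows and tests were chosen with earlier results of these data known. Per the submitters' processing notes, BWA alignment to mm10 and Picard preceded peak calling with MACS2 or SICER, which was done per library, per the file headers; versions are not given in the sources used here. The deposited H3K4me3, H3K27ac and H3K4me1 lists hold MACS2 peaks with a −log10 value, taken as −log10 q from its layout. The deposited H3K36me3 and H3K27me3 lists hold SICER islands with an unlabelled column of whole numbers, read as counts of ChIP reads per island. The MACS2 files of set 2 held summits, and their intervals, listed under set 1, matched in 100% of entries. The 4 inputs were not analysed here. A further noradrenergic marker gene is not reported here. Gene positions came from RefSeq (GRCm38.p6). Covered length was counted by at least 1 bp in the gene record and 10 kb on either side and within 2500 bp of the start; a gene was called higher or lower where both 4% libraries lay on the same side of both 20% libraries. Starts came from the RefSeq promoter table, or from the gene end with more H3K4me3 (Bnip3l, Ndrg1). A domain joined peaks over gaps of up to 500 bp from within 500 bp of the start. Island reads were spread evenly over the island, and a value per gene is reads per kb of record per 1000000 reads in islands. Merged islands with a read in every library and at least 10 reads in at least 2 libraries were fitted with edgeR 4.0.16 (quasi-likelihood, TMM, log covered length as offset, no block, Benjamini-Hochberg), with DESeq2 1.42.0 as an alternative. On simulated counts for 10858 regions the edgeR fit recovered 100 of 100 regions changed 2-fold and 56 of 100 changed 1.5-fold, with 8 false calls. The simulated counts had a fixed dispersion and no effect of set, whereas the same-numbered libraries deviated together. The recovery therefore checks the fit and does not measure its power in these data. In the labels each set has its own input number at both oxygen levels, and set 2 shares a flow cell, but no label names a shared culture or day. With only 2 pairs the fit has no block, and the fit with the set as a block is given beside it. Pathway genes named are those that separated with the largest smallest gap, at most 3 per list, mark and direction, and the 3 genes nearest to Bnip3 and to Bnip3l.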

Additional observations from a re-analysis of the deposited data

How the results depend on the processing

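H3K27ac was higher at 6 to 8 members under every planned setting, and Ddit4 alone turned lower, without the 4% set 2 or the 20% set 1 library (range 0 to 1 lower without a library, 7 higher throughout). The share of all genes higher, 23.8% with all libraries, was then 62.4% without 4% set 1, 28.5% without 4% set 2, 34.9% without 20% set 1 and 47.6% without 20% set 2. The share of all genes lower, 7.64% with all libraries, was 33.4% without 4% set 2 and 23.6% without 20% set 1. It was 10.9% without 4% set 1 and 17.6% without 20% set 2. H3K4me3 higher members numbered 2 within 1 kb of the gene ends (4.98% of all genes). They numbered 1 within 2500 bp of the start (4.94%), a window added after seeing the data. Without a library they numbered 5 to 7 (6.72% to 36.8% of all genes). Lower members then numbered 0 to 2, beside 20.5% to 59.4% of all genes (Fam162a without 4% set 2, Bnip3l and Narf without 20% set 2). H3K4me1 lower members numbered 2 with scores of at least 5 (62.0% of all genes), 4 within 1 kb of the gene ends (38.3%) and 2 near the start (57.2%). Higher members numbered 1 with equal peak numbers (0.507% of all genes). With 2 kb on either side the 1 lower member was Narf in place of Ddit4 (57.2% of all genes lower). Without a library, H3K4me1 was lower at 1 to 4 members (70.1% to 93.2% of all genes) and higher at 0 to 3 (0.570% to 6.56%). H3K36me3 covered length gave 3 to 8 higher members without a library, 8 without 4% set 2 (26.8% of all genes) and 5 without 20% set 2 (24.6%). It gave 0 to 1 lower (31.2% to 43.7%). H3K27me3 gave 0 to 1 either way, Ndrg1 (30.2% to 55.2% of all genes higher, 9.67% to 22.5% lower). Reads per kb separated at 0 members when not scaled and at 6 to 8 without a library (26.7% to 38.5% of all genes). With the set as replicate block edgeR called 1073 regions higher and 350 lower and 6 member regions higher, all but Ankrd37. Same-numbered libraries deviated together with a correlation of 0.497, which with 2 pairs is the same value for both. With TMM on reads per covered length, added after seeing the data, the block gave 631 higher and 532 lower of 10858 regions and 4 of the 7 member regions. Over the 3677 regions with a share of at least 0.9 covered, the blocked fit had ordinary TMM and no length offset. It gave 388 higher, 354 lower and 4 of the 5 member regions tested there. Over all 10858 regions the blocked fit without length offset gave 0. DESeq2 called 2 higher. Without a library edgeR called 0 to 26 regions higher (26 without 4% set 2, 6 without 20% set 2), where the lone library is assumed to vary like the others. The filter on low counts removed 0 regions. Of the log2 ratios of the 7 member regions, none turned negative under any setting; the lowest was 0.06, for Ankrd37, and the highest 1.11, for Ddit4 without length offset. The causes were not tested. Differences in covered length under 200 bp for islands, and total library depth, which was not known for any mark, limit what can be read.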

Other observations

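Neighbouring genes gave mixed values for H3K27ac within 1 kb of their own promoter end. It was higher in both 4% libraries at Ppp2r2a, which lies upstream of Bnip3l and encodes a phosphatase subunit. The end read there, at 67072471, is the end of the Ppp2r2a record far from Bnip3l. H3K27ac covered 1420 and 1293 bp at 4% oxygen, against 903 and 1148 bp at 20%. Ufsp2, which overlaps Ankrd37 by 51 bp at its far end, had 1758 and 1505 bp at 4% and 1041 and 604 bp at 20%, and Cybc1, next to Narf, had 1070 and 1529 bp at 4% and 601 and 988 bp at 20%. Ppp2r2d, which shares its H3K36me3 region with Bnip3, had 1807 and 1756 bp at 4% and 1748 and 1441 bp at 20%. Kpna1 and Wdr5b, which share the region of Fam162a, overlapped between the groups, Ccdc58 was covered over the whole 2001 bp in every library, and Ccdc13 had none. In set 2 the highest H3K27ac summit near the start lay 1723 bp into Bnip3 at 4% oxygen, against 187 bp into it at 20%, while at Bnip3l it lay 972 bp in at 4% and 988 bp in at 20%; summits of set 1 were not used here.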
